A study of Mus musculus with 6 samples.

Results

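Regulators of splicing from the SR, hnRNP and CLK families and their close partners, 40 genes chosen by their symbols from a table of 18283 genes, are described here. They are 4 Clk, 3 Srpk, 2 Tra2, 11 Srsf and 20 Hnrnp genes, and all 40 were expressed highly enough to be tested. They were measured by RNA sequencing in the cortex of wild-type (WT) mice labelled with a time of 5 months. One group of 3 libraries came from cortex injected with AAV-GFP-GA and the other group of 3 from cortex injected with AAV-GFP. AAV is an adeno-associated viral vector, GFP is green fluorescent protein, and GFP-GA carries poly-GA, a glycine-alanine repeat protein made from the expanded C9orf72 repeat of amyotrophic lateral sclerosis and frontotemporal dementia. The labels do not give the promoter of the vector, the transduced cells or the age at injection. In whole tissue, fewer cells of a type and less RNA per cell cannot be told apart. Nothing in the labels says that the libraries came from separate animals, so p-values measure the spread between these libraries.

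Splicing of messenger RNA is steered by proteins that bind exons and introns and by the kinases that act on them. SR proteins, encoded by the Srsf genes and the related Tra2 genes, bind exons and mostly favour their inclusion, whereas hnRNP proteins coat nascent RNA and often oppose it. CLK kinases in the nucleus and SRPK kinases, found largely in the cytoplasm, phosphorylate the serine- and arginine-rich tails of SR proteins and so set where these proteins sit and how active they are. Many SR and hnRNP genes hold down their own messenger RNA by including an exon that sends it to nonsense-mediated decay, and in mouse cells part of the Clk1 and Clk4 transcripts is kept in the nucleus with introns unspliced.

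Libraries held 17493438 to 17576017 expected counts (estimated reads) with AAV-GFP-GA and 16748754 to 17237278 with AAV-GFP. General neuronal markers, which do not tell cortex from other brain regions, were summed in reads scaled to library size (CPM). Their summed level was 10203 to 10929 with AAV-GFP-GA and 10379 to 10468 with AAV-GFP. AAV-GFP replicate 3 had 1 read from 4 Y-linked genes, against 115 to 135 CPM in the other 5 libraries. The control group thus mixed libraries with and almost without Y-linked reads, whereas every AAV-GFP-GA library had them. Summed markers of endothelium (169.9 to 206 against 139.7 to 161 CPM), microglia (408 to 431 against 378 to 406 CPM) and intestinal epithelium (21.4 to 26.8 against 9.72 to 19.3 CPM) did not overlap between AAV-GFP-GA and AAV-GFP. Of these lists, 6 of 7, 5 of 7 and 10 of 11 tested genes had a positive log2 fold change, and only the intestinal gene Cdx1 was at 0 in every library. The intestinal sum was 16.4, 9.72 and 19.3 CPM in AAV-GFP replicates 1, 2 and 3. The median log2 fold change of the intestinal genes was 2.06 against AAV-GFP replicates 1 and 2 and 0.12 against AAV-GFP replicate 3 alone. For endothelium these medians were 0.21 and 0.18, and for microglia 0.12 and 0.10. Choroid plexus markers spanned 42.5 to 544 CPM with AAV-GFP-GA and 235 to 1120.0 CPM with AAV-GFP, and striatal markers 905 to 1036 against 665 to 1343 CPM, and all 6 and all 7 of these genes had a negative change. The part of these differences in the results on splicing regulators was not tested.

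The comparison asks which regulators of splicing differ in cortex that expresses poly-GA. None of the 40 passed an adjusted p of 0.05 in edgeR's quasi-likelihood test, where 0.0209% of all 14324 tested genes, all higher, passed. Their log2 fold changes, AAV-GFP-GA over AAV-GFP, ran from -0.36 to 0.11, and 35 of the 40 were negative, against 51.4% of all tested genes. The median was -0.11, against -0.0039 over all tested genes. At an unadjusted p under 0.05 there were 10 members with a negative change (background 3.45%) and 0 with a positive one (background 3.19%). Leaving out AAV-GFP replicate 2 gave 6 with a negative change (background 1.78% in that fit), and leaving out AAV-GFP replicate 3 gave 23 (background 10.3%). In DESeq2, 0 members passed the adjusted threshold (background 0.0698%) and 9 had an unadjusted p under 0.05 with a negative change (background 2.09%). The libraries of both groups did not overlap for 9 members, all with the AAV-GFP-GA values below (background 5.78%), and for 0 members with the AAV-GFP-GA values above (background 6.09%).

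**Figure D1:**
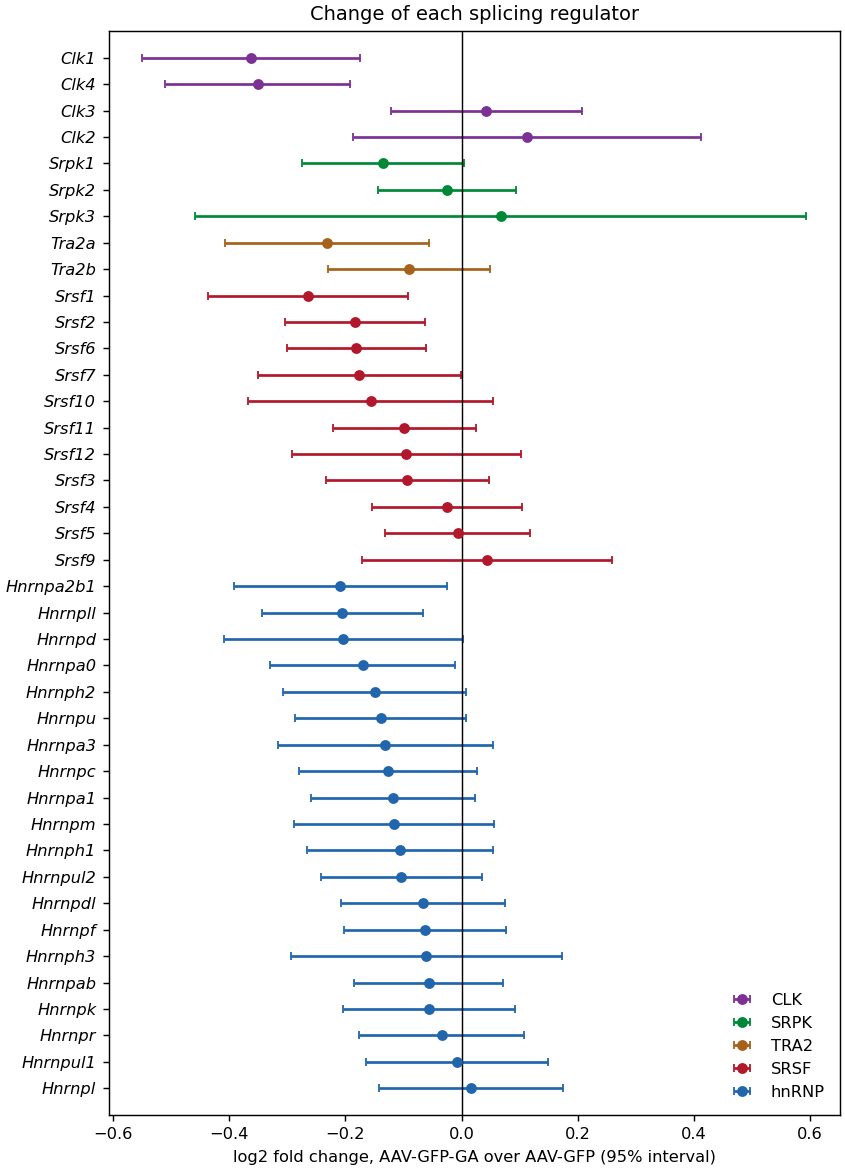
Log2 fold change of each of the 40 splicing regulators, AAV-GFP-GA over AAV-GFP, with its 95% interval from edgeR (3 libraries per group), by family. Points left of 0 are lower with AAV-GFP-GA; 35 of 40 lie there, and Clk1 and Clk4 lie farthest left.

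Among the CLK kinases, Clk4 and Clk1 had lower values in every AAV-GFP-GA library than in any AAV-GFP library, whereas Clk2 and Clk3 did not. Clk4 (Entrez gene 12750, chromosome 11, 51263114 to 51281770, GRCm38.p6) was at 30.2, 34.0 and 31.2 CPM in the AAV-GFP-GA libraries and at 40.6, 40.6 and 40.5 CPM in the AAV-GFP libraries. The 3 control libraries were almost equal, and the highest poly-GA library stayed below the lowest of them. The means were 31.8 ± 1.98 CPM with AAV-GFP-GA and 40.6 ± 0.0894 CPM with AAV-GFP (SD, n = 3 each), from 527, 603 and 541 reads against 678, 680 and 701. Counting error at such read numbers is larger than the SD of the AAV-GFP libraries, so their near equality does not measure how steady Clk4 is.

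The log2 fold change of Clk4 was -0.35 ± 0.07 (SE), a level 21.6% lower, with a 95% interval from -0.51 to -0.19. Its unadjusted p by edgeR was 5.38e-04, the smallest among the 7364 genes with a negative change and rank 13 among all 14324. Its adjusted p was 0.593 in edgeR and 0.238 in DESeq2, and it ranged from 0.0644 to 0.9999 over the alternatives run, so Clk4 passed in none of them.

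Clk1, the best studied CLK kinase and the closest relative of Clk4 (Entrez gene 12747, chromosome 1, 58411988 to 58424088), was at 54.6, 63.5 and 61.3 CPM in the AAV-GFP-GA libraries and at 84.7, 76.6 and 69.4 CPM in the AAV-GFP libraries. The groups did not overlap, and AAV-GFP replicate 3 was the control library nearest to the poly-GA values. The estimate of its log2 fold change, -0.36 ± 0.08 (SE), had 95% limits of -0.55 and -0.18, and edgeR gave an adjusted p of 0.742.

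Clk2 (Entrez gene 12748, chromosome 3, 89164795 to 89177087) was at 14.8, 15.3 and 16.7 CPM in the AAV-GFP-GA libraries and at 14.8, 11.3 and 17.0 CPM in the AAV-GFP libraries. Clk3 (Entrez gene 102414, chromosome 9, 57750621 to 57766235) was at 44.0, 44.8 and 41.2 CPM with AAV-GFP-GA and at 43.4, 38.7 and 43.9 CPM with AAV-GFP. For both kinases the groups overlapped. The log2 fold changes were 0.11 ± 0.14 for Clk2 and 0.04 ± 0.07 for Clk3 (SE), with 95% intervals from -0.19 to 0.41 and from -0.12 to 0.21. Against AAV-GFP replicate 3 alone they were -0.13 for Clk2 and -0.021 for Clk3.

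**Figure D2:**
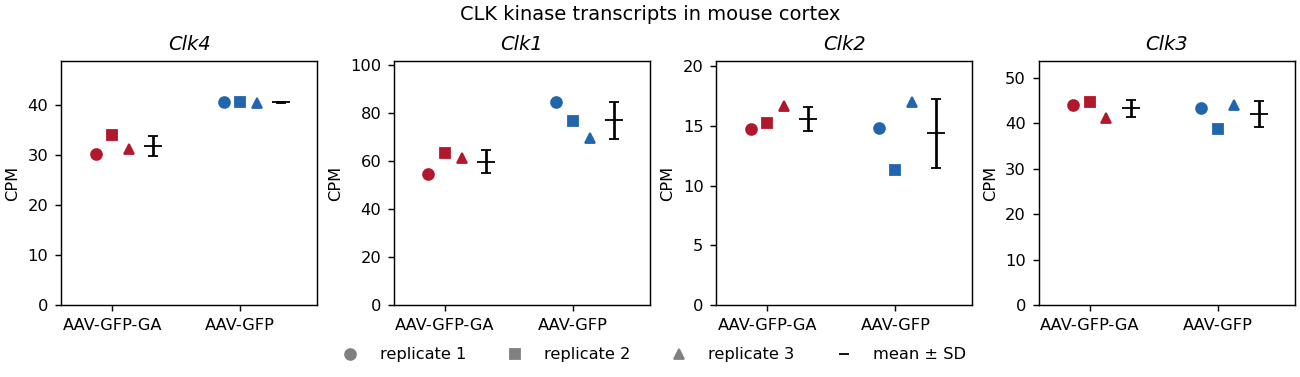
CPM of the 4 Clk genes in each library, AAV-GFP-GA left of AAV-GFP, with marker shapes for replicate numbers and a bar for the mean ± SD (n = 3 each). The Clk4 values reach 34.0 CPM at most with AAV-GFP-GA and 40.5 CPM at least with AAV-GFP, while the Clk2 and Clk3 values overlap.

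The difference between Clk4 and its paralogs was measured within each library, as the log2 ratio of Clk4 reads to the reads of another Clk gene, which does not depend on the scaling of libraries. The ratio of Clk4 to Clk3 was -0.54, -0.40 and -0.40 with AAV-GFP-GA and -0.10, 0.07 and -0.12 with AAV-GFP. The groups did not overlap, and the ratio averaged -0.45 ± 0.08 with AAV-GFP-GA and -0.05 ± 0.10 with AAV-GFP (SD, n = 3 each), a difference of -0.40. The ratio of Clk4 to Clk2 was 1.03, 1.15 and 0.90 with AAV-GFP-GA and 1.45, 1.84 and 1.25 with AAV-GFP, again without overlap and with a difference of -0.49. The ratio of Clk4 to Clk1 was -0.86, -0.90 and -0.97 with AAV-GFP-GA and -1.06, -0.91 and -0.78 with AAV-GFP, with overlap and a difference of 0.01.

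By a two-sided exact permutation test the p was 0.1 for Clk3 and for Clk2, the smallest that 3 libraries against 3 allow, and 0.9 for Clk1. After Benjamini-Hochberg adjustment over the 3 ratios, the exact permutation p-values were 0.15, 0.15 and 0.9. With 3 libraries per group this test cannot reach 0.05. Against AAV-GFP replicate 3 alone the differences were -0.33 for Clk3, -0.22 for Clk2 and -0.13 for Clk1.

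Relative to length, as CPM per kilobase of annotated exon, Clk1 was the most abundant at 33.3 ± 2.58 with AAV-GFP-GA and 42.8 ± 4.25 with AAV-GFP, and Clk2 the least at 7.22 ± 0.458 and 6.67 ± 1.34 (SD, n = 3 each). Between them, Clk4 had a level of 15.4 ± 0.959 CPM per kilobase with AAV-GFP-GA and 19.7 ± 0.0434 with AAV-GFP. Clk3 had 17.3 ± 0.749 with AAV-GFP-GA and 16.8 ± 1.15 with AAV-GFP. Clk4 thus stood below Clk3 with AAV-GFP-GA and above it with AAV-GFP, by more than the larger SD in each group. Without division by length, Clk4 averaged below Clk3 in both groups, at 31.8 against 43.3 CPM with AAV-GFP-GA and 40.6 against 42.0 CPM with AAV-GFP. The order with AAV-GFP therefore depends on the annotated lengths, and the SD does not cover their error.

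Whether reads of Clk4 and Clk1 could be told apart by sequence was checked only with exact stretches of 50 bases. Read length and mismatches in alignment were not taken into account. No stretch of 50 bases from the coding-type transcripts of Clk4, Clk1 or Clk2 occurred in another gene of the GENCODE M21 transcripts, on either strand, whereas 31.7% of those of Clk3 occurred in another gene, its neighbour Edc3 or a transcript that joins them. The longest runs that Clk4 shares with Clk1 and Clk2 lie in coding sequence and are shown because they set what a short read could confuse. The longest run shared with Clk3 is 15 bases, does not lie wholly in coding sequence and is not shown. Those shown are 34 bases with Clk1 and 17 bases with Clk2.
Clk4 and Clk1: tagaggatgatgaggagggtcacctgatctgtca
Clk4 and Clk2: tggagcataggctgcat

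The promoter windows of Clk4, of 2 paralogs with overlapping groups, and of Tra2a are shown because Clk4 and Tra2a, whose AAV-GFP-GA and AAV-GFP values did not overlap, were the only 2 of the 37 members with a window to hold the 8-letter palindrome TGACGTCA, the full cyclic AMP response element. Sequences are from RefSeq on GRCm38.p6 and run from 250 bases before to 50 after the start, 5′ to 3′ on the strand of the gene. Capitals mark TGACG, the core of that element, or CGTCA, the same core on the other strand, and a palindrome appears as both cores overlapping.
Clk4, plus strand, chr11:51262864-51263163: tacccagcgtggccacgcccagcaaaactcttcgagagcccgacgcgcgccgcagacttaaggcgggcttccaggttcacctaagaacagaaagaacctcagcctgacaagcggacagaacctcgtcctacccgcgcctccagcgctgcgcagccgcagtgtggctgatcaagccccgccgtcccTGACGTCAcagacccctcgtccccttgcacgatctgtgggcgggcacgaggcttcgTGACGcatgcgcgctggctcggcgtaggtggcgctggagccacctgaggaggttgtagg
Clk2, plus strand, chr3:89164545-89164844: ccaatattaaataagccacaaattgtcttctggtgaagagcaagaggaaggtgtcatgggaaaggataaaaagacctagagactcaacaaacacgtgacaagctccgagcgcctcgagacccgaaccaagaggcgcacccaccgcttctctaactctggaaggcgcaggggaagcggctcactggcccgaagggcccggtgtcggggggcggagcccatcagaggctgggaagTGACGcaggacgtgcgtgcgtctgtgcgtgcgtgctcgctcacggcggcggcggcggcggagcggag
Clk3, minus strand, chr9:57765065-57765364: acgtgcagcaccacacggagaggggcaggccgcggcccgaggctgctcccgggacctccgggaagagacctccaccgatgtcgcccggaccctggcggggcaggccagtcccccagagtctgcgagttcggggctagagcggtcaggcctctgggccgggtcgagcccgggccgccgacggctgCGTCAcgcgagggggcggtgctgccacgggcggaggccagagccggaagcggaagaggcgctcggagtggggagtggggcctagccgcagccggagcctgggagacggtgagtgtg
Tra2a, minus strand, chr6:49264003-49264302: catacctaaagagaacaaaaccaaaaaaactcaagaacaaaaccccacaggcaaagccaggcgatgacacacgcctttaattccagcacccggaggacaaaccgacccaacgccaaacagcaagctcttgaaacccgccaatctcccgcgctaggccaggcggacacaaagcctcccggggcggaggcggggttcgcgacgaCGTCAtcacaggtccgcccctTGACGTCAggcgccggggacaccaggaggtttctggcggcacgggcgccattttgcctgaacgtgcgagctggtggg

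Promoter windows were found for 37 of the 40 members, 51 windows in all. TGACGTCA occurred in 2 of the 51 windows (3.92%), against 2.87% of the windows of tested genes and 1.79% of all 32851 windows. TGACG on either strand occurred in 28 of the 51 windows (54.9%), against 29.12% of the windows of tested genes and 20.81% of all windows. Of the other members whose groups did not overlap, 5 with a window, Srpk1, Srsf1, Srsf2, Srsf6 and Srsf11, lacked TGACGTCA. No window was available for Clk1 or Hnrnpll, so the motif could not be looked for in these genes. The motif was chosen after the Clk4 window had been read, and several windows belong to the same gene. A match describes letters in the window and shows no binding.

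The SRPK kinases showed no separation like that of Clk4 and Clk1, except in part for Srpk1. Srpk1, a broadly expressed SR protein kinase (Entrez gene 20815), was at 47.1, 44.9 and 45.2 CPM in the AAV-GFP-GA libraries and at 48.5, 51.3 and 50.8 CPM in the AAV-GFP libraries, without overlap. Its log2 fold change was -0.14 ± 0.06 (SE), with an unadjusted p of 0.0567 by edgeR. Srpk2, the most abundant of the family in this tissue per length of exon, averaged 261 ± 8.01 CPM with AAV-GFP-GA and 265 ± 6.34 CPM with AAV-GFP (SD, n = 3 each), and its 95% interval ran from -0.14 to 0.09 on the log2 scale. Srpk3, known from muscle, had 39, 35 and 44 reads against 28, 34 and 47, too few for a narrow interval (-0.46 to 0.59).

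Of the SRSF family, 10 of 11 members had a negative log2 fold change, with a median of -0.10, and 4 had an unadjusted p under 0.05 (background 3.45%). Srsf1, Srsf2, Srsf6 and Srsf11 had no overlap between AAV-GFP-GA and AAV-GFP (background 5.78%). Srsf6, an activator of exon inclusion (Entrez gene 67996, chromosome 2, 162931508 to 162937121), was at 74.4, 76.1 and 72.7 CPM in the AAV-GFP-GA libraries and at 83.6, 84.7 and 84.9 CPM in the AAV-GFP libraries. All 3 control libraries lay together above the poly-GA libraries, as for Clk4. The log2 fold change was -0.18 ± 0.05 (SE), and edgeR gave an unadjusted p of 0.00669, adjusted to 0.742.

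Srsf2, also called SC35 and a mark of nuclear speckles (Entrez gene 20382, chromosome 11, 116849897 to 116853675), was at 77.4, 78.9 and 79.9 CPM in the AAV-GFP-GA libraries and at 90.6, 90.7 and 87.0 CPM in the AAV-GFP libraries. The groups were separate, with a log2 fold change of -0.18 ± 0.05 (SE). Of its 50-base stretches 31.8% also occurred in transcripts of Mettl23 or Mfsd11, which overlap it, so its reads may have been shared with them.

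Srsf1, the SR protein first purified as a splicing factor (Entrez gene 110809, chromosome 11, 88046499 to 88053757), was at 119.9, 126 and 133 CPM in the AAV-GFP-GA libraries and at 154, 166 and 135 CPM in the AAV-GFP libraries. Only a narrow gap separated the groups, since AAV-GFP replicate 3 lay close to the highest poly-GA library. The log2 fold change was -0.26 ± 0.08 (SE), with an unadjusted p of 0.00615. Srsf7, which shares its RNA export role with Srsf3, was at 75.1, 87.4 and 81.1 CPM with AAV-GFP-GA and at 95.4, 97.1 and 82.7 CPM with AAV-GFP, with overlap and an unadjusted p of 0.0486 by edgeR.

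The other SRSF members had smaller log2 fold changes. Srsf10, a repressor when dephosphorylated, had -0.16 ± 0.10 and Srsf11, an SR-related protein found with the U2 snRNP factor U2AF, had -0.10 ± 0.06 (SE). Srsf5, the SRSF gene with the third highest CPM, averaged 113 ± 3.79 CPM with AAV-GFP-GA and 114 ± 3.78 CPM with AAV-GFP (SD, n = 3 each). Its 95% interval, from -0.13 to 0.12, excluded changes as large as the estimate for Clk4. Srsf12, Srsf3, Srsf4 and Srsf9 had overlapping groups and log2 fold changes from -0.095 to 0.044.

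Both TRA2 proteins, which bind GAA-rich exonic enhancers, had a negative log2 fold change. Tra2a (Entrez gene 101214, chromosome 6, 49243921 to 49264248) was at 45.4, 46.0 and 44.0 CPM in the AAV-GFP-GA libraries and at 54.8, 57.1 and 47.2 CPM in the AAV-GFP libraries. The groups did not overlap, with AAV-GFP replicate 3 close to the poly-GA values, and the log2 fold change was -0.23 ± 0.08 (SE), with an unadjusted p of 0.0143 by edgeR. Tra2b had -0.09 ± 0.06 (SE) and overlapping groups.

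Of the hnRNP family, 19 of 20 members had a negative log2 fold change, with a median of -0.11 and a range from -0.21 to 0.02. At an unadjusted p under 0.05 there were 3 of the 20, Hnrnpll, Hnrnpa2b1 and Hnrnpa0 (background 3.45%). Hnrnpll alone had groups that did not overlap, 1 of 20 against a background of 5.78%, which is no more than the background. Hnrnpll, a regulator of Cd45 splicing in lymphocytes (Entrez gene 72692), was at 55.5, 58.0 and 58.2 CPM in the AAV-GFP-GA libraries and at 65.9, 69.3 and 62.8 CPM in the AAV-GFP libraries. All control values exceeded all poly-GA values, and the log2 fold change was -0.21 ± 0.06 (SE), and edgeR gave an unadjusted p of 0.00774, adjusted to 0.742.

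Hnrnpa2b1, which binds RNA for transport in neurons and is mutated in rare human multisystem proteinopathy (Entrez gene 53379, chromosome 6, 51460434 to 51470048), was at 303, 304 and 286 CPM in the AAV-GFP-GA libraries and at 361, 375 and 296 CPM in the AAV-GFP libraries. AAV-GFP replicates 1 and 2 were high, and AAV-GFP replicate 3 lay among the poly-GA libraries. Hnrnpd, or AUF1, which binds AU-rich elements (Entrez gene 11991, chromosome 5, 99955935 to 99979130), was at 136, 134 and 151 CPM with AAV-GFP-GA and at 167, 180.3 and 138 CPM with AAV-GFP, in the same arrangement. The log2 fold changes were -0.21 ± 0.08 for Hnrnpa2b1 and -0.20 ± 0.09 for Hnrnpd (SE).

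Hnrnpa0, which binds AU-rich elements, was at 64.7, 69.0 and 67.7 CPM with AAV-GFP-GA and at 78.6, 80.04 and 68.1 CPM with AAV-GFP, again with AAV-GFP replicate 3 among the poly-GA values. Hnrnpu, a nuclear scaffold protein and the hnRNP gene with the highest CPM, averaged 397 ± 5.51 CPM with AAV-GFP-GA and 438 ± 37.6 CPM with AAV-GFP, and Hnrnph2, a binder of G-rich runs, 145 ± 7.46 and 161 ± 13.2 CPM (SD, n = 3 each). The SD of both was larger in the control group. Hnrnpa3, a relative of Hnrnpa1, and Hnrnpk, which binds C-rich RNA, the other hnRNP genes of highest CPM, had log2 fold changes of -0.13 ± 0.08 and -0.06 ± 0.07 (SE). The other 12 hnRNP genes all had overlapping groups, with log2 fold changes from -0.13 for Hnrnpc to 0.02 for Hnrnpl.

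**Figure D3:**
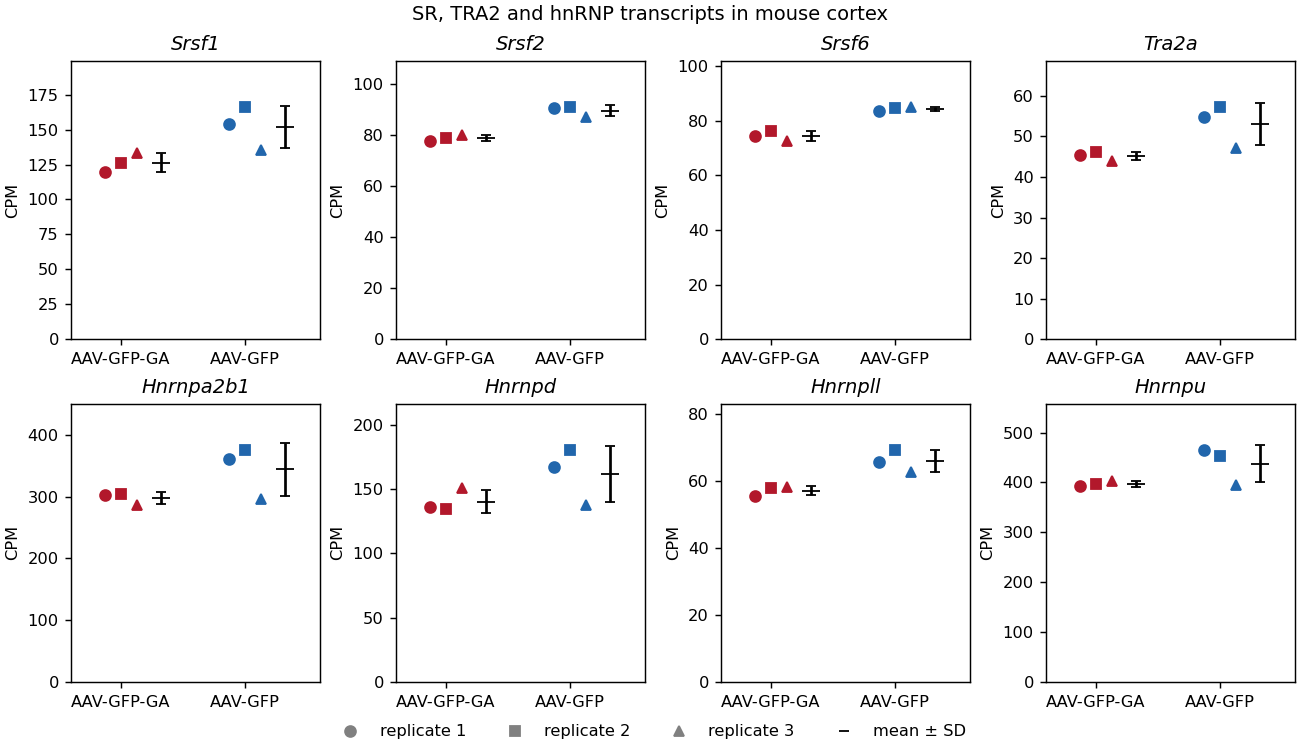
CPM of 8 SR, TRA2 and hnRNP genes in each library, AAV-GFP-GA left of AAV-GFP, with marker shapes for replicate numbers and a bar for the mean ± SD (n = 3 each). In Srsf2 and Srsf6 all 3 AAV-GFP libraries are high, whereas in Hnrnpa2b1 and Hnrnpd AAV-GFP replicate 3 (triangle) lies among the AAV-GFP-GA libraries.

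The position of AAV-GFP replicate 3 differed among the members. It lay below both other control libraries for 28 of the 40 members, against 38.4% of all tested genes, and this held for 18 of the 20 hnRNP genes and 6 of the 11 SRSF genes. It lay above all 3 poly-GA libraries for 14 of the 40, against 27.2% of all tested genes, among them Clk4, Clk1, Srsf2 and Srsf6. AAV-GFP replicates 1 and 2 lay above all 3 poly-GA libraries for 29 of the 40 members, against 19.5% of all tested genes. The median deviation of the 40 members from their mean over the 6 libraries, in log2 CPM, was -0.08, -0.05 and -0.05 with AAV-GFP-GA. In the control group this median stood at 0.09 and 0.12 in AAV-GFP replicates 1 and 2 and at -0.06 in AAV-GFP replicate 3.

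**Figure D4:**
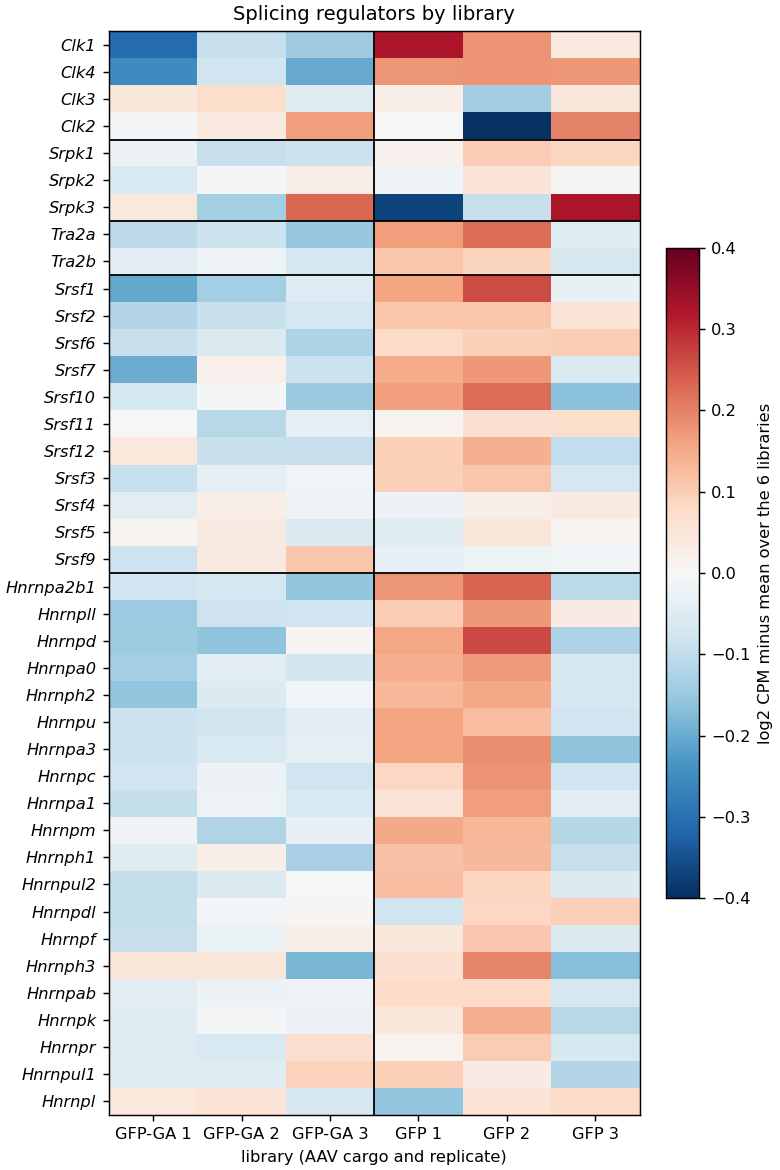
Log2 CPM of each member minus its mean over the 6 libraries, with AAV-GFP-GA libraries left of AAV-GFP libraries and families separated by lines. Red is above and blue below the mean (colours saturate at 0.4); 17 of 20 hnRNP and 5 of 11 SRSF genes are above their mean in AAV-GFP replicates 1 and 2 and below it in AAV-GFP replicate 3, whereas Clk4 and Srsf6 are above it in all 3.

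Compared with AAV-GFP replicates 1 and 2 alone, 23 of the 40 members had an unadjusted p under 0.05 and a negative change (background 10.3%) and 0 had a positive one (background 9.5%), and the median log2 fold change of all 40 was -0.16. In that fit Clk1, Srsf1 and Hnrnpa2b1 passed the adjusted threshold (background 0.236%), with adjusted p-values by edgeR of 0.0484, 0.0487 and 0.0484. Over all alternatives the adjusted p ranged up to 0.9999 for each of these genes. Clk4 had an adjusted p of 0.0644 there. These calls rest on leaving out AAV-GFP replicate 3, the library with 1 Y-linked read, and on 2 control libraries.

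Compared with AAV-GFP replicate 3 alone, through a term for library sets that assumes it varies like the other libraries, 21 of the 40 members had a negative log2 fold change, against 50% of all tested genes. Their median was -0.01, and only 6 of the 20 hnRNP genes were negative, with a median of 0.02. This control library had 1 Y-linked read, against 115 to 119 CPM in the AAV-GFP-GA libraries. In this comparison AAV cargo therefore cannot be told apart from whatever else differs in that library. Members with an unadjusted p under 0.05 and a negative change were 4, against a background of 2.81%, namely Clk4, Clk1, Srsf2 and Srsf6. With a positive change there were 0 (background 3.8%), and 0 members passed the adjusted threshold in edgeR (background 0.0628%).

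Set side by side, the log2 fold change of Clk4 was -0.35 ± 0.07 against AAV-GFP replicates 1 and 2 and -0.35 ± 0.09 against AAV-GFP replicate 3 (SE). For Srsf6 the same values were -0.18 ± 0.05 and -0.19 ± 0.06, and for Srsf2 they were -0.20 ± 0.05 and -0.14 ± 0.06. For Clk1 they were -0.43 ± 0.07 and -0.22 ± 0.09, and for Srsf1 -0.34 ± 0.06 and -0.10 ± 0.08. For Hnrnpa2b1 they were -0.30 ± 0.05 and 0.01 ± 0.07, and for Hnrnpd -0.30 ± 0.06 and 0.03 ± 0.08. Both comparisons share the AAV-GFP-GA libraries, and the comparison with AAV-GFP replicate 3 rests on that control library alone, which had 1 Y-linked read.

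**Figure D5:**
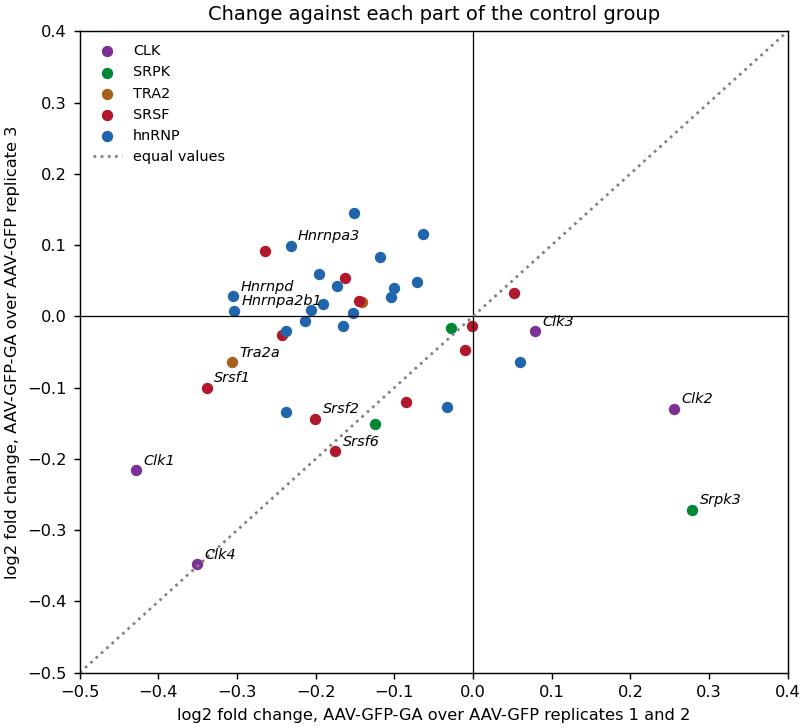
Log2 fold change of each member, AAV-GFP-GA over AAV-GFP replicates 1 and 2 (horizontal axis) and over AAV-GFP replicate 3 alone (vertical axis), by family, with equal values on the dotted line. Clk4 and Srsf6 lie near the line, with -0.35 on both axes for Clk4, whereas most hnRNP genes are negative on the horizontal axis and near 0 or above on the vertical.

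Other genes of the splicing machinery were read from 9 lists of 167 tested genes, of which 0 passed the adjusted threshold, 15 had an unadjusted p under 0.05 with a negative change (background 3.45%) and 0 with a positive one (background 3.19%). Their median log2 fold change was -0.05, and 118 of the 167 were negative (background 51.4%). Against AAV-GFP replicate 3 alone the median was -0.0057, with 90 of 167 negative (background 50%), 4 lower at an unadjusted p under 0.05 (background 2.81%) and 2 higher (background 3.8%). Without that library 45 were lower (background 10.3%) and 8 higher (background 9.5%). In the list of the U1 snRNP, which recognises the 5′ splice site, and its partners, 11 of 11 genes were negative, with a median of -0.13. Against AAV-GFP replicate 3 alone 9 of these 11 were negative, with a median of -0.07, and without that library the median was -0.17. Tia1, which helps U1 to weak 5′ splice sites, was at 52.7, 53.9 and 57.3 CPM in the AAV-GFP-GA libraries and at 66.8, 65.6 and 63.6 CPM in the AAV-GFP libraries. These groups did not overlap, and the log2 fold change was -0.26 ± 0.06 (SE), with an unadjusted p of 0.00167 by edgeR and -0.22 ± 0.07 against AAV-GFP replicate 3 alone.

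Of 21 SR-related and nuclear speckle genes, 17 were negative, with a median of -0.05. In 6 of the 21 the AAV-GFP-GA values lay below all AAV-GFP values (background 5.78%). Rbm39, a U2AF-related factor, had a log2 fold change of -0.17 ± 0.06 (SE). Of 19 genes of the U2 snRNP and the branch site 13 were negative, with a median of -0.03, and U2af1, the subunit that reads the 3′ splice site, had -0.27 ± 0.10. Among other kinases and phosphatases of SR proteins, 11 of 15 were negative, with a median of -0.03, and Prpf4b, a kinase of the spliceosome, had -0.14 ± 0.05.

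The remaining lists had medians from -0.07 to 0.01. The tri-snRNP list of 22 genes, with Snu13, which binds the U4 snRNA, at -0.11 ± 0.06, had a median of -0.0054, and the 8 Sm core genes, with the ring subunit Snrpg at -0.48 ± 0.17 and 7.14 ± 0.63 against 9.98 ± 2.30 CPM (SD, n = 3 each), had -0.07. The PRP19 list of 19 genes, with its core member Plrg1 at 0.14 ± 0.08, had -0.06. Of 37 neural and other splicing regulators 28 were negative, with a median of -0.06, and Ewsr1, an RNA-binding protein, had -0.16 ± 0.06. The 15 genes of nonsense-mediated decay had a median of 0.01, with Upf3b, a link between exon junctions and decay, at -0.25 ± 0.10 (SE throughout for log2 fold changes). Several of these values came mostly from AAV-GFP replicates 1 and 2. Against AAV-GFP replicate 3 alone the log2 fold change was -0.08 for Snrpg, -0.11 for U2af1 and -0.08 for Upf3b. Without that library the values were -0.64, -0.34 and -0.33. For Rbm39 the same values were -0.08 and -0.21, and for Ewsr1 -0.09 and -0.19. For Prpf4b they were -0.10 and -0.15, for Snu13 -0.04 and -0.15, and for Plrg1 0.07 and 0.18.

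Many of the members, though not all, have annotated transcripts of the classes nonsense-mediated decay or retained intron. In GENCODE M21, 27 of the 40 members (67.5%) have at least 1 transcript of the class nonsense-mediated decay, against 27.5% of 14071 tested protein-coding genes, and 31 (77.5%) have at least 1 of the class retained intron, against 57.0%. Clk4 has 3 transcripts of the first class and 7 of the second, and Clk1 has 2 and 7. Such classes may be annotated more fully for well studied and abundant genes. The deposited values are per gene, so the share of each form was not measured.

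Stretches of 50 bases shared with other genes were absent in 12 of the 40 members, among them Clk4, Clk1, Srsf6, Tra2a, Hnrnpll and Hnrnpu. They made up 65.4% in Srsf4, 61.9% in Hnrnpf and 46.7% in Hnrnpa1, whose values therefore rest more on how reads were divided. Of the members whose groups did not overlap, only Srsf1 (0.928%), Srsf2 (31.8%) and Srpk1 (2.27%) shared any.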

How the data were processed

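RNA from mouse cortex was sequenced in 6 libraries, 3 with AAV-GFP-GA and 3 with AAV-GFP. The deposited table holds expected counts (estimated reads) per gene, which the authors made with Bowtie2 2.2.5 and RSEM 1.2.12 on mm10, per the submitters' processing notes. The sources used here do not give the annotation or the strand setting. A single row naming no gene was left out, 25 gene symbols garbled into dates were looked up again by gene ID, and counts were rounded.

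Genes were tested with edgeR 4.0.16 in R 4.3.3 (filterByExpr, TMM, quasi-likelihood test), on all 6 libraries with no covariate and Benjamini-Hochberg adjustment over 14324 genes, at a threshold of 0.05. The analysis was tested on simulated data with planted changes larger than that of any member, which leaves its power for changes of their size unknown. CPM uses TMM-scaled totals, and the biological coefficient of variation was 7.92%. DESeq2 1.42.0, limma-voom 3.58.1, other filters, a replicate block, a term for library sets (AAV-GFP replicates 1 and 2 against the other 4 libraries, a split taken from earlier results of these data) and leaving out each library were alternatives. Depth covers counting error only. Members and lists were chosen with earlier results of these data known. Named genes are all Clk, Srpk and Tra2 genes, in Srsf and Hnrnp the 6 with the lowest p and the 3 with the highest CPM, and in each other list the gene with the lowest p. Of 8 nuclear-retained RNAs listed, only Snhg11 was in the table (log2 fold change -0.17). Gene coordinates and promoters are from RefSeq (GRCm38.p6) and transcripts from GENCODE M21, whose match to the authors' annotation is unknown.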

Additional observations from a re-analysis of the deposited data

How the results depend on the processing

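The log2 fold change of Clk4 stayed between -0.40 and -0.31 when each library was left out, and no alternative brought it past the adjusted threshold. Leaving out single libraries gave 2 to 72 changed genes in all, 0 to 3 changed members, 6 to 23 members at an unadjusted p under 0.05 (1.78% and 10.3% of all genes lower in those fits) and a median of -0.16 to -0.07 over the members. DESeq2 gave 10 changed genes. The term for library sets gave 9 changed genes, 4 members at an unadjusted p under 0.05 (2.81% of all genes lower) and a member median of -0.010. It turned the sign of 22 of the 40 members, 12 of them not among the named genes. The named ones were Clk2 (-0.13), Clk3 (-0.021), Srpk3 (-0.27), Tra2b (0.020), Srsf10 (0.092), Hnrnpa2b1 (0.0077), Hnrnpa3 (0.10), Hnrnpd (0.028), Hnrnpk (0.084) and Hnrnpu (0.0093), and the ratio of Clk4 to Clk1 turned too (-0.13). Leaving out 1 library turned signs within ranges of -0.034 to 0.26 for Clk2, -0.013 to 0.079 for Clk3, -0.080 to 0.28 for Srpk3, -0.032 to 0.022 for Srsf5, -0.12 to 0.0043 for Hnrnpk and -0.064 to 0.078 for the ratio of Clk4 to Clk1. The cause was not tested. Same-numbered libraries did not deviate together (r of 0.091, -0.127 and 0.056 across genes). With deviations from means of 3 libraries per group, these values cannot settle whether the numbers pair the libraries. With the replicate block, 2 genes were changed in all, 0 members were changed, 10 members had an unadjusted p under 0.05 with a negative change, against 2.93% of all tested genes in that fit, and Clk4 was at -0.35 with an adjusted p by edgeR of 0.818.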
